A study of Mus musculus with 15 samples.

Results

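The CXC chemokines described here are 9 genes of bone marrow-derived macrophages (BMDMs), namely Cxcl1, Cxcl2, Cxcl3, Cxcl5, Cxcl9, Cxcl10, Cxcl11, Cxcl14 and Cxcl16, found by their gene symbols among 55385 genes of the count table. BMDMs from 6-week-old BALB/c mice were kept for 2 h in serum-free DMEM, in DMEM with 20 ng/mL recombinant mouse GM-CSF (rmGM-CSF), or in 4T1 CM, serum-free medium in which 4T1 cells, a mammary tumor line of the mouse, had been cultured. GM-CSF is a cytokine whose receptor activates the transcription factors STAT5A and STAT5B. STAT5cKO mice carry floxed Stat5 alleles together with a Csf1r-iCre transgene, and STAT5fl/fl mice, which carry the floxed alleles only, were the controls. The Csf1r promoter is active in other myeloid cells as well as in macrophages. RNA-seq libraries were available from 2 STAT5fl/fl mice (numbers 112 and 113 in the labels) and 3 STAT5cKO mice (114, 115 and 116) under each of the 3 treatments, which gives 15 libraries in 6 groups. Each number was read as 1 mouse, which the labels do not state. The libraries of 1 more STAT5fl/fl replicate, which the methods say was removed by quality control, were not analysed here.

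Chemokines are small secreted proteins that attract leukocytes along a gradient, and the CXC family is named for the residue that separates its first pair of cysteines. CXCL1, CXCL2, CXCL3 and CXCL5 carry a glutamate-leucine-arginine motif before these cysteines and attract neutrophils through the receptor CXCR2, and their genes are classical NF-kB targets. CXCL9, CXCL10 and CXCL11 lack this motif, are induced by interferons and attract activated T cells and natural killer cells through CXCR3. CXCL14 is a more distant member with no settled receptor, and CXCL16 is made as a membrane-bound protein that binds CXCR6 and can be shed by the proteases ADAM10 and ADAM17. In GRCm38 the 4 neutrophil-attracting genes lie within 1 cluster on chromosome 5, from Cxcl5 (start 90759360) through Cxcl3 (90786103) and Cxcl1 (90891241) to Cxcl2 (90903871). Cxcl9 (start 92321347), Cxcl10 (92346638) and Cxcl11 (92359544) lie side by side further along the same chromosome, Cxcl14 lies on chromosome 13 and Cxcl16 on chromosome 11. Cxcl11 is annotated in GENCODE M21 as a polymorphic pseudogene, a gene that is intact in some strains and not in others.

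Library totals ranged from 16016736 to 22883108 counts, and 3 counts, taken as the floor of detection, corresponded to between 0.131 and 0.187 CPM (counts scaled to the size of the library). Stat5a was measured at 29.0 to 45.01 CPM in the STAT5fl/fl libraries and Stat5b at 60.8 to 77.7 CPM, against at most 3 and 4 counts, respectively, in any STAT5cKO library. All 8 macrophage markers examined passed the low-count filter, and their summed level was lower in the STAT5fl/fl libraries (24630 to 29830 CPM) than in the STAT5cKO libraries (31110 to 46590 CPM). Most of this sum was Lyz2 (DMEM means of 17040 and 26310 CPM), Adgre1 and Cd14 went the same way, and Cd68, Itgam, Fcgr1 and, within its spread, Csf1r had lower means in STAT5cKO under each treatment. The mean of Mertk was higher in STAT5cKO in DMEM (21.2 and 24.9 CPM) and lower with rmGM-CSF (16.7 and 14.6) and 4T1 CM (41.5 and 29.4). Of 10 neutrophil markers, 6 (Ly6g, S100a9, Mpo, Elane, Ngp and Retnlg) had at most 3 counts in every library, and the summed level was 4.87 to 8.56 CPM in STAT5fl/fl and 6.16 to 12.9 CPM in STAT5cKO, with no overlap among the 4T1 CM libraries (6.03 to 8.56 against 10.3 to 12.9 CPM). Only S100a8 and Mmp8 passed the filter, and most of this sum was Mmp8 (5.30 to 6.86 against 8.12 to 10.9 CPM with 4T1 CM). The 8 fibroblast markers summed to 5.58 to 9.28 CPM in STAT5fl/fl and 9.58 to 16.4 CPM in STAT5cKO, with Lum at most at 3 counts throughout. Only Col1a1, Col1a2 and Pdgfrb of them passed the filter. The study reported higher Col1a1 (qRT-PCR) and more secreted type I collagen (ELISA) as a trait of the STAT5cKO macrophages themselves. Of 8 epithelial markers 6 had at most 3 counts in every library, and their sum, which only Cdh1 carried past the filter, was higher in STAT5fl/fl than in STAT5cKO with 4T1 CM (3.21 to 4.38 against 1.23 to 2.17 CPM) and with rmGM-CSF (1.18 to 1.43 against at most 0.049 CPM). Dendritic cell markers summed to between 1.601 and 5.73 CPM and lymphocyte markers to between 0.155 and 0.827 CPM, and the endothelial list was carried by Kdr and Vwf at 240.4 to 351 CPM in all. Whether other cells had a part in the results was not tested. The 4T1 CM library of mouse 115 differed most from the others of its group (a mean chi-square per gene of 16.9 and 23.2 against mice 114 and 116, where other replicate pairs gave 4.42 to 14.5), so the genotype differences with 4T1 CM are also given without it, as are the interactions nearest to the threshold that use it.

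The sequences upstream of the genes that responded are shown because they carry the motifs of NF-kB and interferon-regulated promoters, which is the background against which the neutrophil-attracting and the interferon-driven members are usually told apart. They are RefSeq promoters of GRCm38.p6, ending at the base before the annotated start and written in the direction of the gene. Of the 9 genes, 6 matched the promoter table (Cxcl1, Cxcl2, Cxcl3, Cxcl9, Cxcl10 and Cxcl14). The 250 bases before each start were searched on both strands for GGNNNTTCC (the NF-kB core), GAAANNGAA (the core of the interferon-stimulated response element, ISRE), TTCNNNGAA (GAS, the element bound by STAT dimers) and TATAAA (the TATA box). Capitals mark the matches, and matches of different motifs did not overlap.
Cxcl1, chr5:90891115-90891244, plus strand: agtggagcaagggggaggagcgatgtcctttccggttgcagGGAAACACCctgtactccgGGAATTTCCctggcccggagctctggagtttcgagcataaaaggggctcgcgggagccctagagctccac
Cxcl2, chr5:90903769-90903898, plus strand: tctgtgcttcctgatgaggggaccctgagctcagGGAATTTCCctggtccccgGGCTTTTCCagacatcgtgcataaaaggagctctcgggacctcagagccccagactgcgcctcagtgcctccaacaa
Cxcl3, chr5:90785971-90786100, plus strand: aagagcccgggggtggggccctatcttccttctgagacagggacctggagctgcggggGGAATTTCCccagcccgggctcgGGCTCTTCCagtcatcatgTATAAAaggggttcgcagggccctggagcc
Cxcl10, chr5:92348890-92349139, minus strand: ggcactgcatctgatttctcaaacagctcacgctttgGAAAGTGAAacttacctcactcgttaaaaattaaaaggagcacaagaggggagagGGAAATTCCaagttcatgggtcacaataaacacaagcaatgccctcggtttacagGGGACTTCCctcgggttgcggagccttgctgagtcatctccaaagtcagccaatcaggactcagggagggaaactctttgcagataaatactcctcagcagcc
Cxcl14, chr13:56296552-56296801, minus strand: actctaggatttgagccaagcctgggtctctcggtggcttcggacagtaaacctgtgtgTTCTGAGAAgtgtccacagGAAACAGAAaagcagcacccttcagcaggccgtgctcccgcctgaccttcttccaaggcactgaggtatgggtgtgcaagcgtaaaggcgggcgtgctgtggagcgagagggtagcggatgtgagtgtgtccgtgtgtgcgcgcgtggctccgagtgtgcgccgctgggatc

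The NF-kB core was found at 2 places upstream of each of Cxcl1, Cxcl2, Cxcl3, Cxcl9 and Cxcl10 and at none upstream of Cxcl14, where 15.7% of the 32851 promoters of the table held at least 1. In Cxcl1, Cxcl2 and Cxcl3 the places lay within 100 bases of the start, and 1 of them was the same run of letters in all 3 genes, ending 62, 88 and 64 bases before the start. The ISRE core stood upstream of Cxcl9, Cxcl10 and Cxcl14 (in 7.13% of all promoters), GAS upstream of Cxcl14 (7.02%), and the TATA box upstream of Cxcl3 and Cxcl9 (12.4%). These are matches of letters in a short window, not measured binding sites.

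**Figure D1:**
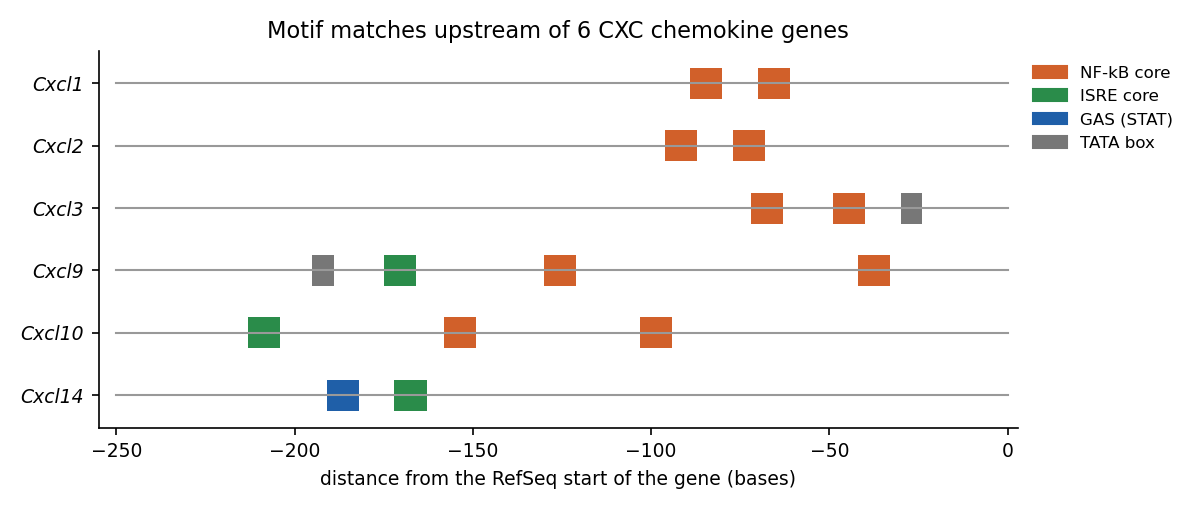
Matches of 4 motifs in the 250 bases upstream of 6 CXC chemokine genes, with the distance from the RefSeq start in bases on the horizontal axis and 1 line per gene. Both NF-kB core places of Cxcl1, Cxcl2 and Cxcl3 lie close to the start, and Cxcl14 has none.

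Per length of exon, Cxcl16 and Cxcl14 dominated the family in DMEM, rmGM-CSF moved Cxcl2 and Cxcl1 into the places after Cxcl16, and 4T1 CM raised Cxcl14 to the level of Cxcl16 (STAT5fl/fl) or above it (STAT5cKO). The summed level of the 9 genes was 159 to 168 CPM per kb in the STAT5fl/fl DMEM libraries and 162 to 191 CPM per kb in the STAT5cKO ones. With rmGM-CSF it was 447 to 461 and 467 to 490.2 CPM per kb, and with 4T1 CM 420.1 to 426 and 436 to 473 CPM per kb, respectively. The sums therefore differed little between the stimulated groups, while the shares of the members in them changed with the treatment. Cxcl1, Cxcl2, Cxcl3 and Cxcl5 together took 1.15 to 2.20% of the sum in the DMEM libraries, 35.9 to 39.3% (STAT5fl/fl) and 43.0 to 47.0% (STAT5cKO) with rmGM-CSF, and 1.75 to 3.41% with 4T1 CM. Cxcl9, Cxcl10 and Cxcl11 together took 7.12 to 8.86% in STAT5fl/fl BMDMs with rmGM-CSF and 2.03 to 2.43% in STAT5cKO BMDMs with rmGM-CSF, and at most 1.43% in the other groups.

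**Figure D2:**
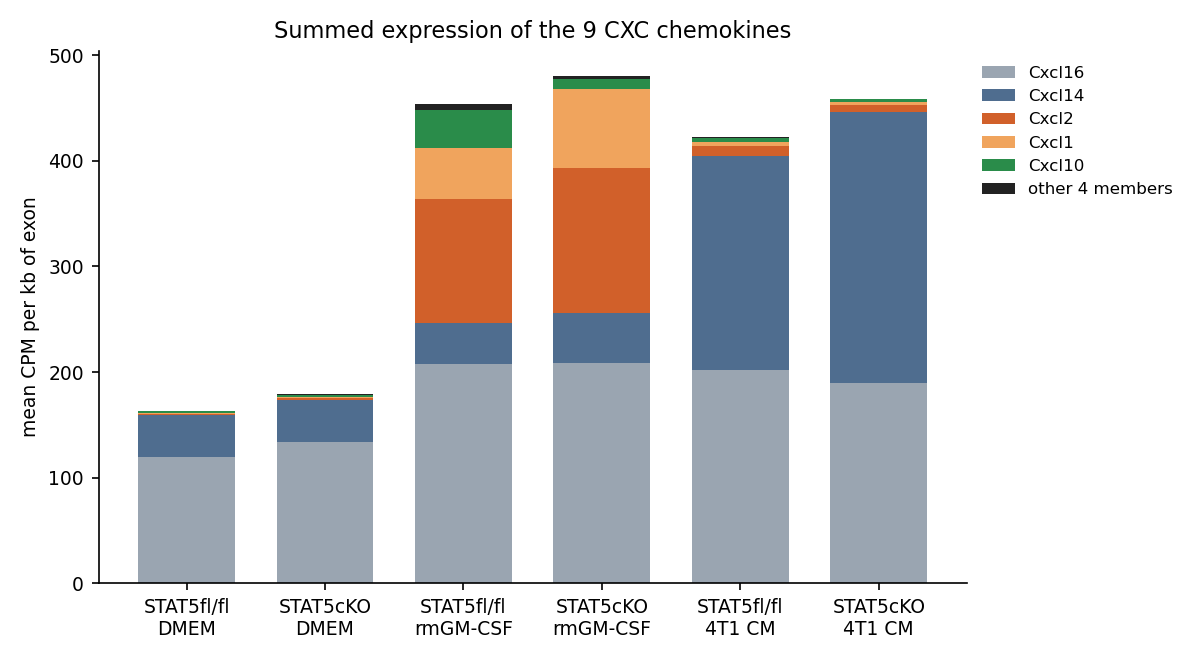
Mean CPM per kb of exon of each CXC chemokine, stacked over the 9 genes for each of the 6 groups (2 STAT5fl/fl or 3 STAT5cKO libraries each). Cxcl16 and Cxcl14 make up most of the DMEM bars, Cxcl2 and Cxcl1 appear with rmGM-CSF, and Cxcl14 expands with 4T1 CM.

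The order of the mean levels per kb in STAT5fl/fl DMEM was Cxcl16 (120 CPM per kb), Cxcl14 (39.3), Cxcl10 (2.13), Cxcl2 (1.603), Cxcl1 (0.689) and Cxcl9 (0.0662), with no overlap between neighbours in these 2 libraries. Cxcl5, Cxcl3 and Cxcl11 came last at 0 to 2 counts per library and could not be ordered. In STAT5cKO DMEM the ranges of Cxcl2 (2.37 CPM per kb) and Cxcl10 (2.02) overlapped. With rmGM-CSF the order was Cxcl16, Cxcl2, Cxcl1, Cxcl14, Cxcl10, Cxcl3 and Cxcl11 in both genotypes, and the only overlapping neighbours were Cxcl14 (39.1 CPM per kb) and Cxcl10 (35.7) in STAT5fl/fl, among genes above 1 CPM per kb. In STAT5cKO the same pair stood at 47.5 and 10.1 CPM per kb. With 4T1 CM, Cxcl14 and Cxcl16 overlapped in STAT5fl/fl (both at 202 CPM per kb) and did not in STAT5cKO (256 and 190.0 CPM per kb).

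Of the 9 genes, 7 exceeded 1 CPM in at least 2 libraries and entered the tests. Cxcl5 and Cxcl9 did not, and Cxcl11 did so only through the 2 STAT5fl/fl rmGM-CSF libraries, so that it had to be high there and its call in that group is not counted below as a result. Each comparison was tested with edgeR's quasi-likelihood test over 13005 genes, and an adjusted p under 0.01 was called. RNA of a whole culture was measured, so that fewer cells making a chemokine and less RNA per cell cannot be told apart. The comparisons with DMEM share the DMEM libraries, and those between rmGM-CSF and 4T1 CM share both.

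rmGM-CSF raised Cxcl1, Cxcl2, Cxcl3, Cxcl10 and Cxcl16 in STAT5fl/fl BMDMs, where 16% of all tested genes were called higher, and these 5 and Cxcl11 in STAT5cKO BMDMs, where 13.4% were. Only Cxcl14 was not called in either genotype. 4T1 CM raised all 7 in STAT5fl/fl (19.1% of all genes were called higher) and 5 in STAT5cKO (19%), where Cxcl10 and Cxcl11 were not called. Between the stimuli, 4 genes (Cxcl1, Cxcl2, Cxcl3 and Cxcl10) were lower with 4T1 CM than with rmGM-CSF in each genotype, beside 17% and 17.5% of all genes, and Cxcl14 was higher in each, beside 14% and 16.6%. None of the 7 was called lower than in DMEM with rmGM-CSF or 4T1 CM, where 12.7% (rmGM-CSF, STAT5fl/fl), 10% (rmGM-CSF, STAT5cKO), 18% (4T1 CM, STAT5fl/fl) and 18.2% (4T1 CM, STAT5cKO) of all genes were. The medians of the log2 fold changes over all tested genes lay between -0.00609 and 0.0149 in every comparison.

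**Figure D3:**
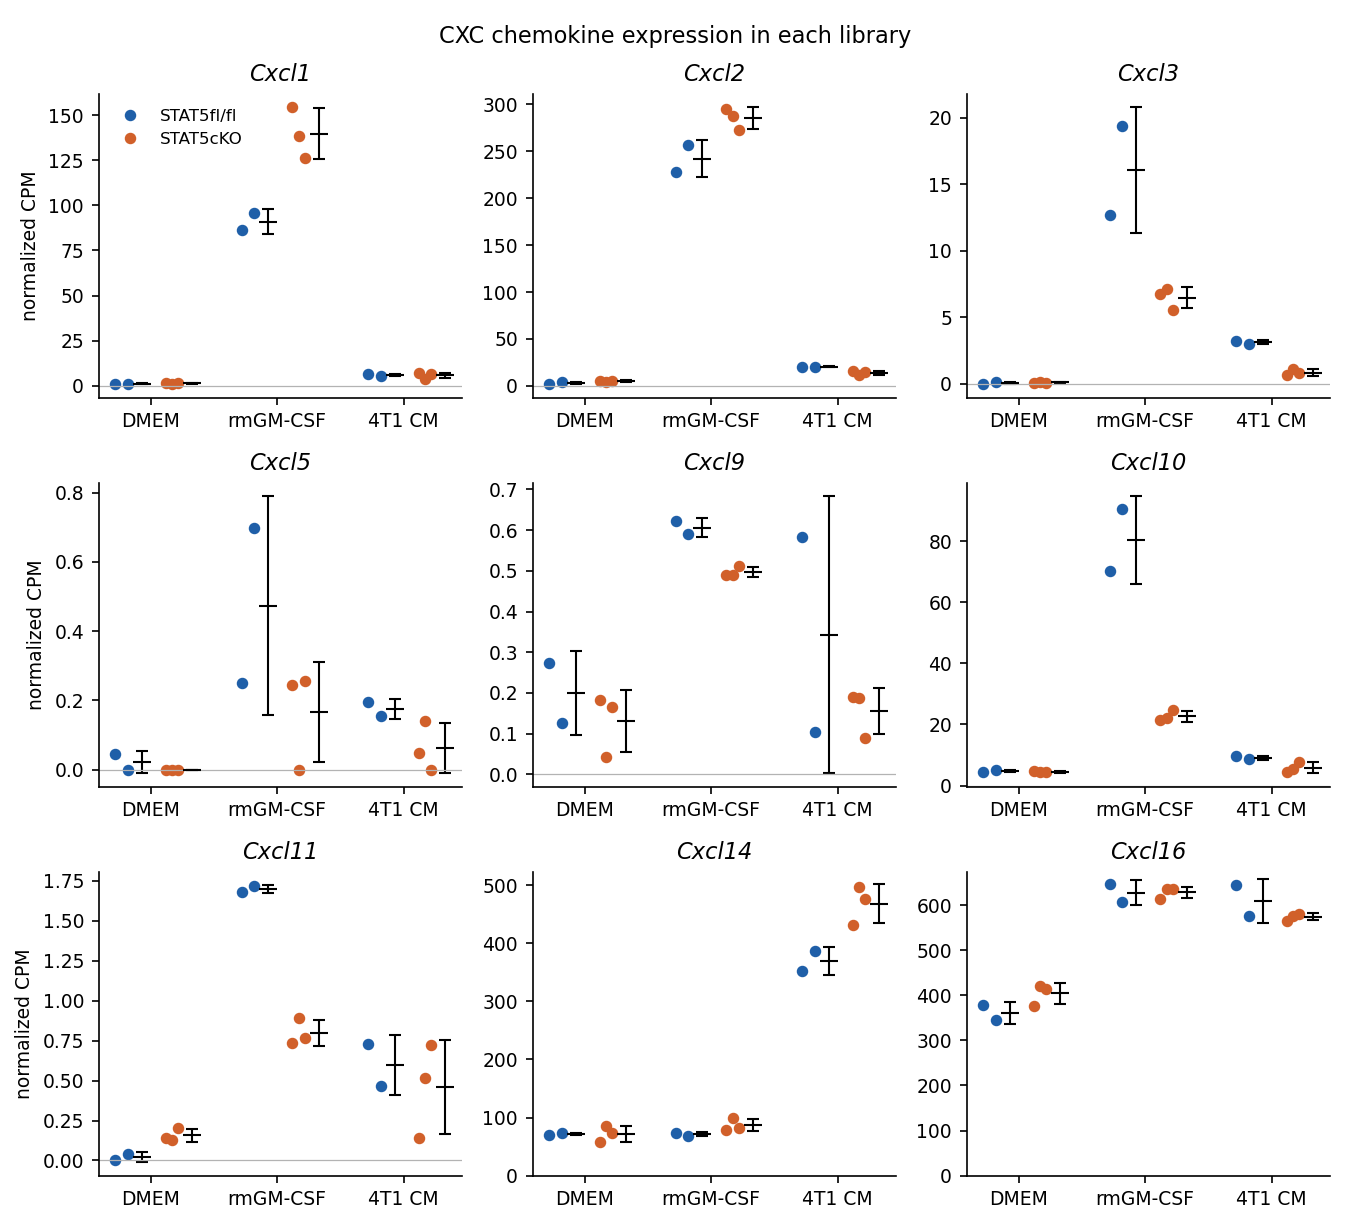
Normalized CPM of each CXC chemokine in every library (points, blue for STAT5fl/fl and orange for STAT5cKO) by treatment, with the mean and SD of each group beside them and a separate vertical scale for each gene. With rmGM-CSF, Cxcl1 is higher and Cxcl3, Cxcl10 and Cxcl11 are lower in the STAT5cKO libraries, and Cxcl14 is highest with 4T1 CM in both genotypes.

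Cxcl1, a neutrophil attractant made by macrophages and epithelial cells, was at 1.32 and 1.26 CPM in the STAT5fl/fl DMEM libraries and at 1.56, 1.13 and 1.52 CPM in the STAT5cKO ones. rmGM-CSF brought it to 86.2 and 95.9 CPM in STAT5fl/fl and to 154, 138 and 126 CPM in STAT5cKO. 4T1 CM brought it to 6.57 and 5.62 CPM in STAT5fl/fl and to 6.95, 4.06 and 6.34 CPM in STAT5cKO. The 3 treatments did not overlap in either genotype, and the genotypes overlapped with DMEM and 4T1 CM but not with rmGM-CSF, where every STAT5cKO library was the higher. The mean rose 70.5-fold with rmGM-CSF in STAT5fl/fl BMDMs (log2 fold change 6.14 ± 0.20 (SE), adjusted p = 2.84e-13) and 99.3-fold in STAT5cKO BMDMs (6.63 ± 0.16, adjusted p = 6.9e-15). The rise with 4T1 CM was 4.72-fold (2.24 ± 0.25, adjusted p = 1.2e-06) and 4.11-fold (2.04 ± 0.20, adjusted p = 2.16e-07), respectively.

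Cxcl2, the attractant of the same receptor known as MIP-2, was the most abundant of the 4 neutrophil-attracting genes per kb in every group. It was at 2.50 and 4.13 CPM in the STAT5fl/fl DMEM libraries and at 5.65, 3.92 and 5.14 CPM in the STAT5cKO ones. Its rmGM-CSF libraries were at 228 and 256 CPM against 295, 288 and 272 CPM, and its 4T1 CM libraries at 20.6 and 20.5 CPM against 15.7, 11.8 and 14.3 CPM. The genotypes overlapped with DMEM only. With rmGM-CSF the STAT5cKO libraries were the higher, and with 4T1 CM the STAT5cKO libraries were the lower. The mean rose 73.1-fold with rmGM-CSF in STAT5fl/fl (log2 fold change 6.18 ± 0.17, adjusted p = 2.29e-14) and 58.2-fold in STAT5cKO (5.86 ± 0.13, adjusted p = 3.43e-15). It rose 6.20-fold (2.62 ± 0.18, adjusted p = 2.07e-09) and 2.84-fold (1.5 ± 0.14, adjusted p = 1.11e-07) with 4T1 CM.

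Cxcl3, their close relative, was nearly absent without stimulation, with 0 and 2 counts in the STAT5fl/fl DMEM libraries and 1, 3 and 2 counts in the STAT5cKO ones. Under rmGM-CSF it reached 12.7 and 19.4 CPM in STAT5fl/fl (204 and 362 counts) and 6.76, 7.09 and 5.55 CPM in STAT5cKO (138, 159 and 87 counts). Under 4T1 CM it reached 3.21 and 2.99 CPM in STAT5fl/fl and 0.615, 1.09 and 0.769 CPM in STAT5cKO. The genotypes did not overlap under either stimulus, and every STAT5cKO library was the lower. Both stimuli raised it in both genotypes (adjusted p = 1.17e-10 and 5.6e-10 with rmGM-CSF, 9.47e-08 and 5.57e-05 with 4T1 CM, for STAT5fl/fl and STAT5cKO). Because so few counts stood in DMEM, the rise is given as the ratio of summed counts with its exact 95% interval, which covers counting error only. With rmGM-CSF this ratio was 373 (103 to 3086) in STAT5fl/fl and 75.5 (34.4 to 207) in STAT5cKO, and with 4T1 CM it was 71.0 (19.2 to 592) and 9.47 (4.07 to 27.0). Of the 50-base stretches of its exons, 4.24% also occur in Cxcl2 or in other genes, and 5.84% of those of Cxcl2 occur in Cxcl3. Pairs with a mapping quality under 10 had been left out of the counts.

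Cxcl5, the last of the 4, had at most 1 count per library in DMEM, 4 and 13 counts in the STAT5fl/fl rmGM-CSF libraries and 5, 0 and 4 counts in the STAT5cKO ones. With 4T1 CM it had 4 and 3 counts against 1, 3 and 0. Its highest level was 0.697 CPM, in the library of mouse 113. With rmGM-CSF the ratio of summed counts between STAT5cKO and STAT5fl/fl was 0.314 (0.123 to 0.745), but among the replicates the difference was not called when Cxcl5 was tested without the filter (log2 fold change -1.56 ± 0.91, adjusted p = 0.414). In STAT5fl/fl the ratio of summed counts between rmGM-CSF and DMEM was 22.4 (3.51 to 936), from 17 counts against 1, and that rise was not called in the same test (adjusted p = 0.0111).

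Cxcl10, also called IP-10, was the only interferon-driven member expressed above 2 CPM. It was at 4.59 and 5.01 CPM in the STAT5fl/fl DMEM libraries and at 4.92, 4.35 and 4.36 CPM in the STAT5cKO ones. With rmGM-CSF it was at 70.2 and 90.4 CPM in STAT5fl/fl and at 21.3, 22.1 and 24.7 CPM in STAT5cKO, a gap without overlap. With 4T1 CM it was at 9.58 and 8.67 CPM against 4.54, 5.34 and 7.88 CPM, again without overlap, with mouse 116 the nearest to the STAT5fl/fl libraries. The mean rose 16.7-fold with rmGM-CSF in STAT5fl/fl (log2 fold change 4.06 ± 0.18, adjusted p = 1.21e-11) and 5-fold in STAT5cKO (2.32 ± 0.15, adjusted p = 2.75e-09). 4T1 CM raised it 1.90-fold in STAT5fl/fl (0.92 ± 0.20, adjusted p = 0.00104), a call lost without mouse 112 (adjusted p = 0.0442) or 113 (0.0123). In STAT5cKO the log2 fold change with 4T1 CM was 0.39 ± 0.17 and was not called (adjusted p = 0.0748).

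Cxcl11, the CXCR3 ligand next to Cxcl10, had 0 and 1 counts in the STAT5fl/fl DMEM libraries and 3, 3 and 5 counts in the STAT5cKO ones. With rmGM-CSF it was at 1.68 and 1.72 CPM in STAT5fl/fl (27 and 32 counts) and at 0.735, 0.892 and 0.766 CPM in STAT5cKO (15, 20 and 12 counts). With 4T1 CM it had 15 and 9 counts against 3, 11 and 16. The genotypes stood apart with DMEM, where STAT5cKO was the higher by a few counts, and with rmGM-CSF, where it was the lower, and overlapped with 4T1 CM. No test is given for the rise with rmGM-CSF in STAT5fl/fl, the group through which the gene entered. In STAT5cKO the rise was called (adjusted p = 0.00189), and the call was lost without mouse 115 (0.0374). The rise with 4T1 CM was called in STAT5fl/fl (adjusted p = 0.000777) and not in STAT5cKO (0.0297). As ratios of summed counts against DMEM, rmGM-CSF gave 77.7 (13.4 to 3121) in STAT5fl/fl, from a single DMEM count, and 5.04 (2.58 to 10.8) in STAT5cKO.

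Cxcl9, the third CXCR3 ligand and a classical target of interferon gamma, stayed between 1 and 12 counts in all 15 libraries. With rmGM-CSF it had 10 and 11 counts in STAT5fl/fl and 10, 11 and 8 in STAT5cKO, that is 0.606 ± 0.0232 (SD, n = 2) and 0.497 ± 0.0119 CPM (SD, n = 3). In DMEM it had 6 and 3 counts against 4, 1 and 4. The ratio of summed counts between rmGM-CSF and DMEM was 3.07 (1.35 to 7.62) in STAT5fl/fl and 3.80 (1.75 to 9.13) in STAT5cKO, with intervals that overlapped. These intervals cover counting error only, and tested among the replicates without the filter the rise was not called (adjusted p = 0.127 in STAT5fl/fl and 0.0249 in STAT5cKO). With 4T1 CM the STAT5fl/fl libraries were 12 and 2 counts, so that mouse 112 alone carried the mean.

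Cxcl14, found in many epithelia and in some immune cells, responded to 4T1 CM and not detectably to rmGM-CSF in STAT5fl/fl. It was at 70.5 and 73.2 CPM in the STAT5fl/fl DMEM libraries and at 58.0, 85.3 and 73.6 CPM in the STAT5cKO ones. With rmGM-CSF it was at 74.1 and 68.6 CPM against 79.2, 99 and 82.0 CPM, and with 4T1 CM at 353 and 387 CPM against 430.4, 496 and 476 CPM. The rmGM-CSF and DMEM libraries overlapped in both genotypes, the 4T1 CM libraries stood apart, and under both stimuli every STAT5cKO library lay above the STAT5fl/fl ones. The mean rose 5.15-fold with 4T1 CM in STAT5fl/fl (log2 fold change 2.36 ± 0.14, adjusted p = 2.63e-10) and 6.46-fold in STAT5cKO (2.69 ± 0.11, adjusted p = 2.45e-12). With rmGM-CSF the log2 fold change was -0.01 ± 0.14 in STAT5fl/fl (adjusted p = 0.963) and 0.26 ± 0.11 in STAT5cKO (adjusted p = 0.0765, or 0.00525 with the mouse as a replicate block).

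Cxcl16, the transmembrane member, was high in every library. It was at 378 and 344 CPM in the STAT5fl/fl DMEM libraries and at 377, 421 and 415 CPM in the STAT5cKO ones. With rmGM-CSF it was at 647 and 608 CPM against 614, 636 and 635 CPM, and with 4T1 CM at 644 and 576 CPM against 566, 576 and 580.1 CPM. The stimulated libraries lay above every DMEM library, and the genotypes overlapped under each treatment. The mean rose 1.74-fold with rmGM-CSF in STAT5fl/fl (log2 fold change 0.80 ± 0.08, adjusted p = 1.85e-07) and 1.55-fold in STAT5cKO (0.64 ± 0.06, adjusted p = 2.99e-07). Its rise with 4T1 CM was 1.69-fold (0.76 ± 0.08, adjusted p = 2.22e-07) and 1.42-fold (0.51 ± 0.06, adjusted p = 2.18e-06).

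**Figure D4:**
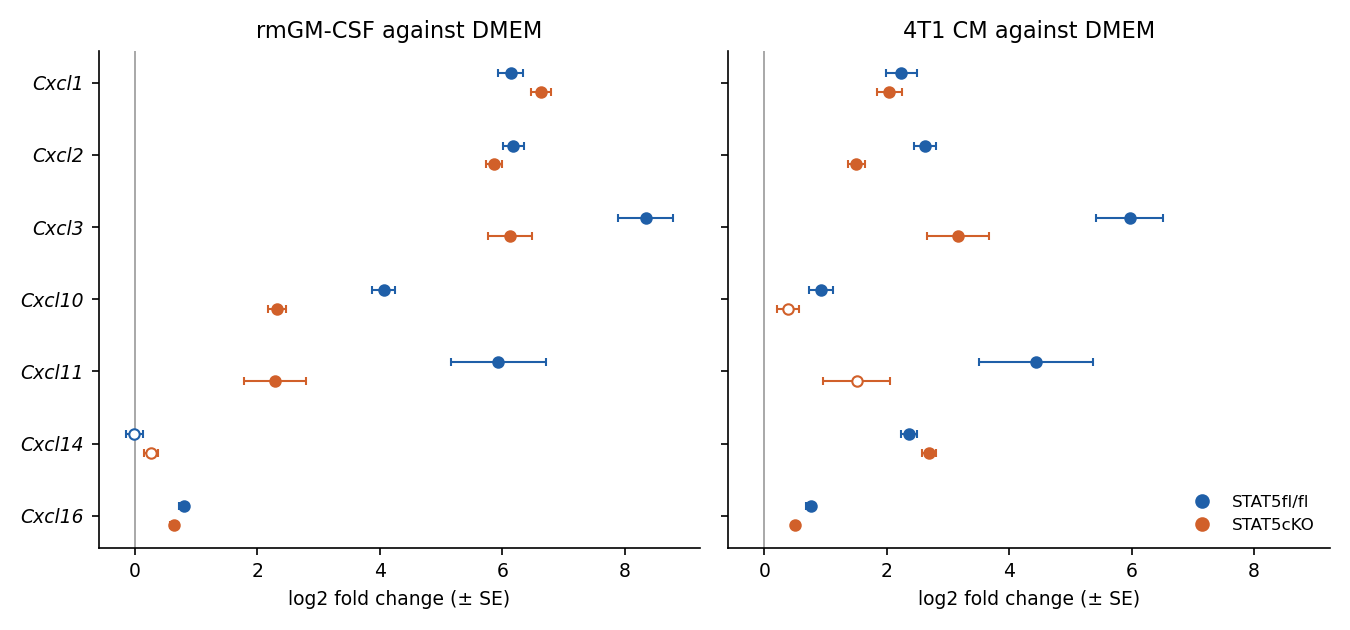
Log2 fold changes (± SE) of the 7 tested CXC chemokines with rmGM-CSF (left) and 4T1 CM (right) against DMEM, blue for STAT5fl/fl and orange for STAT5cKO, with filled points for an adjusted p under 0.01. The neutrophil-attracting genes lie furthest right with rmGM-CSF, Cxcl14 lies near 0 there and above 2 with 4T1 CM, the points of Cxcl3 and Cxcl11 rest on very few DMEM counts, and Cxcl11 was tested because it was high in STAT5fl/fl with rmGM-CSF.

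Set against each other, the stimuli differed most for Cxcl1 and Cxcl2. With 4T1 CM the mean of Cxcl1 was 14.9-fold lower than with rmGM-CSF in STAT5fl/fl (log2 fold change -3.90 ± 0.17, adjusted p = 1.27e-11) and 24.1-fold lower in STAT5cKO (-4.59 ± 0.14, adjusted p = 7.74e-14). For Cxcl2 the mean was 11.8-fold and 20.5-fold lower (-3.56 ± 0.14, adjusted p = 5.11e-12, and -4.36 ± 0.12, adjusted p = 2.47e-14). Cxcl3 was 5.18-fold and 7.86-fold lower (adjusted p = 6.14e-07 and 3.25e-08), and Cxcl10 was 8.81-fold and 3.84-fold lower (2.14e-10 and 1.23e-08). Cxcl11 had a log2 fold change of -1.49 ± 0.46 in STAT5fl/fl (adjusted p = 0.014, or 0.00949 with the replicate block) and of -0.78 ± 0.42 in STAT5cKO (0.143). The STAT5fl/fl value uses the rmGM-CSF group through which Cxcl11 entered the tests. A lower level with 4T1 CM was thereby favoured, and it is not counted as a result. Cxcl16 did not pass the test in either genotype (-0.04 ± 0.07 and -0.13 ± 0.06, adjusted p = 0.692 and 0.0883), while Cxcl14 was 5.18-fold and 5.39-fold higher with 4T1 CM (adjusted p = 4.73e-10 and 1.49e-11).

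Loss of STAT5 left the chemokines without a called difference in DMEM, and Cxcl3 was lower in STAT5cKO under both stimuli. With rmGM-CSF Cxcl10 was also lower and Cxcl1 was higher. With 4T1 CM Cxcl2 was also lower, in a call close to the threshold, and Cxcl1 was not called. In DMEM 0 of the 7 tested genes were called by edgeR, beside 0.923% of all genes called higher and 1.43% called lower. At an unadjusted p under 0.05 there were 3, namely Cxcl2 (adjusted p = 0.109), Cxcl16 (0.175) and Cxcl11 (0.193), each higher in STAT5cKO, and DESeq2 called 0. With rmGM-CSF 1 of 7 was called higher in STAT5cKO (3.78% of all genes) and 2 of 7 lower (6.16%). With 4T1 CM 0 were called higher (4.01%) and 2 lower (3.43%). Among the neutrophil-attracting genes called with rmGM-CSF the sign thus depended on the gene, with Cxcl1 higher and Cxcl3 lower. With 4T1 CM the called genes, Cxcl2 and Cxcl3, were both lower. Among the macrophage markers, Lyz2, Adgre1 and Cd14 were also higher in STAT5cKO, while Cd68, Itgam, Fcgr1 and, within its spread, Csf1r had lower means. Mertk had the higher mean in STAT5cKO in DMEM and the lower mean with both stimuli. The summed fibroblast markers (only Col1a1, Col1a2 and Pdgfrb past the filter) and, with 4T1 CM, the summed neutrophil markers (mostly Mmp8) were higher in STAT5cKO. The summed epithelial markers, of which only Cdh1 passed the filter, were lower in STAT5cKO with both stimuli. The part of these markers in the differences was not tested.

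With rmGM-CSF the mean of Cxcl10 was 3.54-fold lower in STAT5cKO than in STAT5fl/fl BMDMs (80.3 ± 14.3 CPM (SD, n = 2) against 22.7 ± 1.77 CPM (SD, n = 3), log2 fold change -1.83 ± 0.14 (SE), adjusted p = 4.55e-08). Cxcl3 was 2.48-fold lower (16.1 ± 4.74 against 6.47 ± 0.808 CPM, -1.31 ± 0.20, adjusted p = 0.000177). This call was lost without mouse 113, whose library was the highest (-0.97, adjusted p = 0.0237). Cxcl1 was 1.53-fold higher in STAT5cKO (91.0 ± 6.81 against 139.6 ± 14.2 CPM, 0.62 ± 0.12, adjusted p = 0.00161). That call was lost without mouse 112 (adjusted p = 0.055) or 113 (0.0227), where a single STAT5fl/fl mouse remained, and its direction held. Cxcl2 had a log2 fold change of 0.23 ± 0.11 (adjusted p = 0.152) and Cxcl11 of -1.08 ± 0.40 (0.0722), and neither was called. Cxcl11 entered the tests through the STAT5fl/fl libraries of this comparison, which favoured a lower level in STAT5cKO, so its difference is not counted as a result. Cxcl14 (0.28 ± 0.13, adjusted p = 0.141) was not called, nor was Cxcl16 (0.00 ± 0.07, 0.987), whose means of 627 and 629 CPM were nearly the same.

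With 4T1 CM Cxcl3 was 3.77-fold lower in STAT5cKO (3.10 ± 0.154 against 0.823 ± 0.240 CPM, log2 fold change -1.91 ± 0.29, adjusted p = 0.000252), and without the 4T1 CM library of mouse 115 the difference was -2.15 (adjusted p = 0.000248). Cxcl2 was 1.48-fold lower (20.6 ± 0.101 against 13.9 ± 1.95 CPM, -0.56 ± 0.13, adjusted p = 0.00841). The call for Cxcl2 stood close to the threshold and was lost without the 4T1 CM library of mouse 115 (-0.46, adjusted p = 0.0294), without mice 112, 113, 115 or 116 in turn (0.0275 to 0.0422) and with only the 4T1 CM libraries in the model (0.0276). Cxcl10 was 1.54-fold lower in the mean and was not called (-0.62 ± 0.18, adjusted p = 0.0263), although it was called by DESeq2 (0.00605) and without mouse 116 (0.00193). Without the library of mouse 115 it was -0.55 (adjusted p = 0.0749). Cxcl1 had nearly equal means (6.09 and 5.78 CPM, -0.08 ± 0.18, adjusted p = 0.83), and without the library of mouse 115 its log2 fold change was 0.12. Cxcl14 (0.34 ± 0.12, adjusted p = 0.0669), Cxcl11 (-0.36 ± 0.49, 0.676) and Cxcl16 (-0.09 ± 0.07, 0.436) were not called, and without that library they were at 0.29, -0.45 and -0.09 with adjusted p of 0.145, 0.669 and 0.493.

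**Figure D5:**
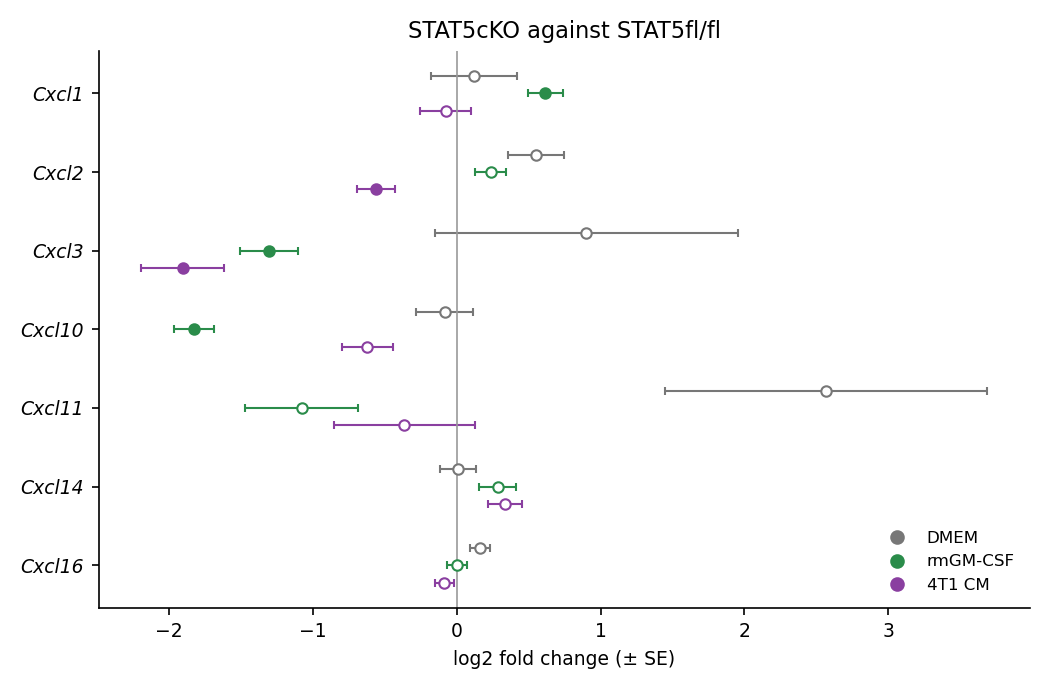
Log2 fold changes (± SE) of the 7 tested CXC chemokines between STAT5cKO and STAT5fl/fl BMDMs in DMEM (grey), rmGM-CSF (green) and 4T1 CM (purple), with filled points for an adjusted p under 0.01. Cxcl10 with rmGM-CSF and Cxcl3 under both stimuli lie furthest left among the filled points, and Cxcl1 with rmGM-CSF is the filled point on the right. Cxcl11 was tested because it was high in STAT5fl/fl with rmGM-CSF.

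Whether the genotypes responded differently was tested with interactions, which were called for 3.16% (rmGM-CSF against DMEM), 1.31% (4T1 CM against DMEM) and 1.43% (4T1 CM against rmGM-CSF) of all genes. Cxcl10 was called in the first (1 of 7 genes). Its rise with rmGM-CSF was smaller in STAT5cKO by 1.74 ± 0.24 on the log2 scale (log2 difference of -1.74, adjusted p = 0.000191), and without mouse 113 the difference was -1.61 with an adjusted p of 0.0132. For 4T1 CM against DMEM 0 of 7 were called at the threshold. Cxcl2 came nearest, with a rise that was smaller in STAT5cKO (-1.12 ± 0.24, adjusted p = 0.0138), and it was called with the replicate block (-1.13, adjusted p = 0.00267) and by DESeq2 (1.2e-05). Without the 4T1 CM library of mouse 115 it was -1.01 (adjusted p = 0.018). At an unadjusted p under 0.05 Cxcl3, Cxcl11 and Cxcl16 joined it, each with the smaller rise in STAT5cKO. For Cxcl3 the SE of the interaction was 1.11, since DMEM held so few counts, and a difference of -2.81 was not called (adjusted p = 0.237, or 0.181 without that library).

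Between 4T1 CM and rmGM-CSF, the genotype difference of Cxcl10 was the smaller with 4T1 CM (log2 difference 1.21 ± 0.23, adjusted p = 0.00538, 1 of 7 genes called). This call was lost without mice 112, 113, 115 or 116 in turn (adjusted p from 0.014 to 0.234) and with only the libraries compared in the model (0.0193), and was kept when only the 4T1 CM library of mouse 115 was left out (1.28, adjusted p = 0.00428). Cxcl2 moved the other way, from a genotype difference of 0.23 with rmGM-CSF to -0.56 with 4T1 CM (difference -0.80 ± 0.17, adjusted p = 0.0141, or 0.00182 with the replicate block and 0.0237 without that library). Cxcl1 had the same sign as Cxcl2 and was not called (-0.69 ± 0.22, adjusted p = 0.12). For Cxcl3 the difference of -0.60 ± 0.36 was not called (adjusted p = 0.567), so that its lower level in STAT5cKO was not shown to depend on the stimulus.

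Ratios within a library do not depend on its scaling and are given as descriptions, from levels per kb. With rmGM-CSF the STAT5fl/fl libraries held 28.2 and 32.4 units of Cxcl10 per 100 of Cxcl2, and the STAT5cKO libraries 6.63, 7.05 and 8.33. With 4T1 CM the same ratio was 42.7 and 38.9 in STAT5fl/fl and 26.6, 41.5 and 50.7 in STAT5cKO. The genotypes thus stood apart for this ratio with rmGM-CSF and overlapped with 4T1 CM. Cxcl3 per 100 of Cxcl2 was 3.29 and 4.48 against 1.35, 1.46 and 1.21 with rmGM-CSF, and 9.20 and 8.64 against 2.32, 5.44 and 3.19 with 4T1 CM, so it was lower in every STAT5cKO library under both stimuli. Cxcl1 per 100 of Cxcl2 was 41.6 and 41.3 against 57.6, 53.0 and 51.0 with rmGM-CSF and 35.1 and 30.3 against 49.0, 37.9 and 49.0 with 4T1 CM, higher in every STAT5cKO library.

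Among the receptors of these ligands, 2 of 8 passed the low-count filter. Cxcr2, the receptor of the neutrophil attractants, had at most 5 counts in any library and Cxcr6, the receptor of CXCL16, at most 3. Cxcr3, the receptor of CXCL9, CXCL10 and CXCL11, was at 4.76 ± 0.301 CPM (SD, n = 2) in STAT5fl/fl DMEM and fell with rmGM-CSF in STAT5fl/fl (log2 fold change -1.40 ± 0.27, adjusted p = 0.000502) and with 4T1 CM in both genotypes (-1.81 ± 0.28, adjusted p = 3.35e-05, and -1.10 ± 0.22, 0.000422). Cxcr4, the receptor of CXCL12, was called lower in all 4 comparisons with DMEM. Neither receptor gene passed the test between the genotypes. Of 6 further CXC ligands only Pf4 was tested, which encodes the platelet factor CXCL4. Pf4 rose with 4T1 CM in both genotypes (2.81 ± 0.32, adjusted p = 1.1e-06, and 1.48 ± 0.26, 0.000139) and was lower in STAT5cKO with 4T1 CM (-1.10 ± 0.25, adjusted p = 0.00619). Of the proteases that shed CXCL16, Adam17 rose with rmGM-CSF (0.40 ± 0.06, adjusted p = 0.000104, and 0.34 ± 0.05, 7.36e-05) and fell with 4T1 CM in both genotypes (-0.72 ± 0.07, 7.09e-08, and -0.39 ± 0.05, 8.5e-06), while Cxcl16 rose with both. Adam10, the other protease, was called higher with 4T1 CM than in DMEM in both genotypes. Its mean went from 196.8 to 261 CPM in STAT5fl/fl and from 191.5 to 228.8 CPM in STAT5cKO. In the same list Csf2rb, the common chain of the GM-CSF receptor, was lower in STAT5cKO with rmGM-CSF (-1.21 ± 0.07, adjusted p = 2.03e-09) and with 4T1 CM (-0.61 ± 0.07, 1.92e-05).

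The list of NF-kB targets and regulators, 19 of whose 20 genes were tested, moved in 1 direction with rmGM-CSF, with 19 of 19 called higher in each genotype (median log2 fold change 2.097 in STAT5fl/fl and 1.82 in STAT5cKO). Of all genes, 16% and 13.4% were called higher there. Nfkbie, an inhibitor of NF-kB, rose in both (3.36 ± 0.09, adjusted p = 1.82e-14, and 3.003 ± 0.07, 3.67e-15). With 4T1 CM 15 were higher and 1 lower in STAT5fl/fl (median 0.77) and 13 higher and 1 lower in STAT5cKO (median 0.73). Of all genes, 19.1% were higher and 18% lower in STAT5fl/fl, and 19% and 18.2% in STAT5cKO. Between the genotypes, 5 of the 19 were lower in STAT5cKO with rmGM-CSF and none higher (median -0.09), beside 6.16% and 3.78% of all genes. Among the 5 were Il1b (-1.51 ± 0.17, adjusted p = 5.31e-06) and Ptgs2 (-0.75 ± 0.09, 8.6e-06). With 4T1 CM 6 were higher in STAT5cKO and none lower (median 0.25), beside 4.01% and 3.43% of all genes. Among the 6 was Ptgs2 (1.005 ± 0.10, 2.37e-06), where Cxcl2 and Cxcl3 were lower. Cxcl1 with rmGM-CSF thus differed between the genotypes in the direction opposite to each NF-kB gene that was called there. The 14 tested genes of the list that were not called there had means on either side. In STAT5cKO, Nfkbiz (294 CPM in STAT5fl/fl and 369 in STAT5cKO) and Traf1 (99.6 and 128) were higher, as Cxcl1 was, and Nfkbib (68.0 and 63.9) was lower. These were picked as examples, and the median log2 fold change over the 19 tested genes was -0.09 there.

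Of 27 interferon-induced genes, all of which were tested, 10 were lower and 2 higher in STAT5cKO with rmGM-CSF (median -0.11), beside 6.16% and 3.78% of all genes. Cd274, which encodes PD-L1, had a log2 fold change of -2.17 ± 0.08 (adjusted p = 2.38e-12), Gbp7 of -2.47 ± 0.19 (4.33e-08) and Gbp5 of -1.97 ± 0.16 (9.16e-08), and the last pair encode interferon-inducible GTPases. The value of Cxcl10, -1.83, lay near these, which were named for their small adjusted p, while 15 of the 27 were not called. In STAT5fl/fl 9 rose with rmGM-CSF and 1 fell (median 0.23), against 13 and 1 in STAT5cKO (median 0.30). Of all genes, 16% rose and 12.7% fell in STAT5fl/fl, against 13.4% and 10% in STAT5cKO. With 4T1 CM 4 were lower in STAT5cKO and none higher (median -0.11), beside 3.43% and 4.01% of all genes. Ifng had 0 counts in all 15 libraries, which allows at most 3 counts in each, Ifna4 had at most 1, and Ifnb1 at most 5, in STAT5fl/fl with rmGM-CSF. The receptor gene Ifnar1 rose with rmGM-CSF (1.29 ± 0.07, adjusted p = 1.96e-10, and 0.94 ± 0.06, 1.2e-09) and was lower in STAT5cKO with rmGM-CSF (-0.35 ± 0.06, adjusted p = 0.000812).

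Of 7 regulators of chemokine mRNA decay, all tested, Zc3h12a and Zfp36, which encode proteins that promote the decay of many cytokine mRNAs, rose under both stimuli in both genotypes. With rmGM-CSF Zc3h12a rose by 2.11 ± 0.07 (adjusted p = 1.56e-13) and 1.97 ± 0.05 (2.72e-14) on the log2 scale. Zfp36 rose by 1.71 ± 0.08 (3.67e-11) and 1.51 ± 0.07 (1.83e-11). Between the genotypes 2 of the 7 were lower with rmGM-CSF (median -0.22) and 2 with 4T1 CM (median -0.16), beside 6.16% and 3.43% of all genes. Zfp36l1, of the same family as Zfp36, was called in both, at -1.40 ± 0.10 (adjusted p = 2.3e-08) and -0.68 ± 0.10 (0.000252).

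Over the 15 libraries, the genes whose log2 CPM most resembled that of Cxcl1 were Nfkbia (Pearson's r = 0.995), Tnfaip3 (0.994) and Tnfsf9 (0.988), and the same 3 came first for Cxcl2 (0.996, 0.988 and 0.986). Nfkbia and Tnfaip3 encode inhibitors in the NF-kB pathway, and Tnfsf9 encodes a ligand of the TNF family. For Cxcl10 they were Gbp2b (0.990), Gbp2 (0.986) and Sertad2 (0.985), the first pair encoding guanylate-binding proteins, and for Cxcl3 Morf4l2 (0.984), Sdc4 (0.984) and Cdc42ep2 (0.980). For Cxcl11 they were Capza1 (0.944), Ube2d3 (0.943) and Rarg (0.942), for Cxcl14 Cdkn2d (0.992), Mmp19 (0.989) and Akap13 (0.987), and for Cxcl16 Gm7809 (0.987), Zc3h12a (0.979) and Dlst (0.978). By Spearman's measure only Gbp2 and Gbp2b for Cxcl10 and Cdkn2d for Cxcl14 were again among the first 3. Among the members, Cxcl1 and Cxcl2 resembled each other most (0.994), and Cxcl14 had values between -0.293 and 0.423 with the other 6 tested genes. The points are 6 groups of libraries that share mice and treatments, so these values mostly describe the 3 treatments, and no p is given.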

How the data were processed

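RNA-seq counts of 15 libraries were analysed, and groups were taken from the library labels. Libraries that carry the same number in their labels were read as cells of 1 mouse, and nothing else in the labels says that replicates are separate animals, so the p-values measure the spread between these libraries. The authors trimmed the reads (Trimmomatic 0.33), aligned them to GRCm38 (HISAT2 2.1.0) and counted fragments per gene (featureCounts 1.6.2), on the strand of the gene, with both ends mapped and a mapping quality of at least 10. The authors deposited raw counts without normalization, beside the other column used, the summed exon length of each gene. The file's header also names HC11/R1 libraries, which were not analysed here, and 0 columns of other samples were used.

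Tests were run with edgeR 4.0.16 in R 4.3.3 (quasi-likelihood test, 6 groups in 1 model, relative log expression factors, genes over 1 CPM in at least 2 libraries). The normalization, filter and threshold of 0.01 follow the study's methods. P-values were adjusted over all tested genes by the Benjamini-Hochberg method. Standard errors (SE) are the log2 fold change divided by the square root of the test's F statistic. CPM are scaled by the same factors. Intervals of count ratios are exact and cover counting error only. Same-numbered libraries of different treatments deviated together from their group means, with correlations of 0.093 to 0.213 in STAT5fl/fl and 0.055 to 0.214 in STAT5cKO, against -0.238 to 0.149 for different numbers. Deviations from a group mean cancel out, which lowers the values for different numbers. With 2 STAT5fl/fl libraries per group these are the exact opposite of the values for same numbers, so they are no separate reference. Alternatives were no filter, an adjusted p of 0.05, a model of only the libraries compared, the number as a replicate block, DESeq2 1.42.0, limma 3.58.1 (voom with the number as a random effect), other normalization and the exclusion of each mouse. The exclusion of the 4T1 CM library of mouse 115 was chosen after seeing the data. Only the main edgeR test was tried on simulated counts, for some of the comparisons, and the other steps were not.

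The members, gene lists and motifs were chosen with earlier results of these data known. Genes named beside the members are, from each list, called genes with the smallest adjusted p, at most 3 per list and comparison. Receptors, ligands and interferons at or near 0 counts, Adam10, Adam17 and Cxcr4 were named as members of their lists. Nfkbiz, Traf1 and Nfkbib, which were not called between the genotypes with rmGM-CSF, were named as examples. The genes most like a member were the 3 with the highest Pearson correlation of log2 CPM among tested genes with a mean of at least 5 CPM.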

Additional observations from a re-analysis of the deposited data

Results flagged for a closer look

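The response of Cxcl10 to rmGM-CSF differed between the genotypes. The log2 fold change against DMEM was 4.06 in STAT5fl/fl and 2.32 in STAT5cKO BMDMs, and the difference of -1.743 passed the interaction test of edgeR (adjusted p = 0.000191), with the 3 STAT5cKO libraries at 21.3 to 24.7 CPM under the 2 STAT5fl/fl libraries at 70.2 and 90.4 CPM. The genotype difference of Cxcl10 also differed between the stimuli, by 1.205 on the log2 scale (adjusted p = 0.00538), being -1.83 with rmGM-CSF and -0.62 with 4T1 CM. Both tests share the rmGM-CSF libraries. Without mouse 113, which leaves a single STAT5fl/fl mouse, the first difference was -1.61 and lost its call. The second lost its call without any of mice 112, 113, 115 (edgeR adjusted p = 0.0213) or 116 (0.014). It also lost its call with only the libraries compared in the model (0.0193).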

How the results depend on the processing

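Of 153 counts of called CXC chemokines under alternative settings, 131 stayed within 1.5 times the value reported, and of 954 log2 fold changes 904 kept their direction and their side of the threshold, 18 lost their call, 19 gained one and 13, none of them called, changed sign. The counts of the treatment comparisons changed by at most 2 genes (5 to 7 called in place of 7 with 4T1 CM in STAT5fl/fl). Without the 4T1 CM library of mouse 115, the calls of 4T1 CM against DMEM and against rmGM-CSF in STAT5cKO did not change. In DMEM 1 gene was called without the low-count filter in place of 0 between the genotypes. Without any 1 mouse, 1 to 3 genes were called with rmGM-CSF in place of 3 (1 without mouse 113) and 1 to 2 with 4T1 CM in place of 2. With 4T1 CM there were also 4 without the filter, 1 with only the libraries compared and 1 without the 4T1 CM library of mouse 115.

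For the interaction of 4T1 CM against DMEM, 1 gene was called in place of 0 without the filter, at an adjusted p under 0.05, with the replicate block and by DESeq2. For that of 4T1 CM against rmGM-CSF, 3 were called in place of 1 without the filter and 2 at an adjusted p under 0.05, with the replicate block, by DESeq2 and with the mouse as a random effect, and leaving out 1 mouse gave 0 to 1. For that of rmGM-CSF against DMEM, leaving out 1 mouse gave 0 to 1 in place of 1 (0 without mouse 113). Without the filter, genotype differences were also called for Cxcl2 in DMEM (adjusted p = 0.00306 by edgeR), for Cxcl14 with rmGM-CSF (0.00548) and for Cxcl10 and Cxcl14 with 4T1 CM (0.000113 and 0.000189). The replicate block changed no other call than those of Cxcl2, Cxcl11 and Cxcl14 given with the results. The cause of these changes was not tested.

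Values that changed sign were small. Cxcl14 between the genotypes in DMEM was -0.007 with the mouse as a random effect and ranged from -0.125 to 0.145 without 1 mouse. Likewise, the genotype difference of Cxcl16 under rmGM-CSF ranged from -0.041 to 0.048. Under 4T1 CM that of Cxcl1 ranged from -0.225 to 0.122 (0.123 without the 4T1 CM library of mouse 115) and that of Cxcl11 from -0.846 to 0.057. Cxcl14 ranged from -0.092 to 0.071 with rmGM-CSF in STAT5fl/fl and from -0.064 to 0.173 in the interaction of 4T1 CM against rmGM-CSF. Cxcl11 could not be fitted without mouse 112 or 113, since it then failed the filter.

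Over all genes, the genotype comparison called 306 genes in DMEM (43 to 246 without 1 mouse, 557 by DESeq2, 841 without the filter, 883 at an adjusted p under 0.05), 1292 with rmGM-CSF (555 to 1008 without 1 mouse, 2205 at 0.05) and 968 with 4T1 CM (324 to 800 without 1 mouse, 279 with only the libraries compared, 1552 without the filter, 1910 at 0.05). The interactions called 411, 170 and 186 genes, in the order above of rmGM-CSF against DMEM, 4T1 CM against DMEM and 4T1 CM against rmGM-CSF, and 132, 26 and 74 without mouse 113. With 2 STAT5fl/fl mice, leaving out either leaves 1, whose spread is then taken from the other groups. Depth limits Cxcl5, Cxcl9 and Cxcl11, and the DMEM level of Cxcl3.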
